A study of Mus musculus with 9 samples.

Results

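Cardiac muscle genes were read in whole-lung RNA of 9 mice, as the rows of the deposited gene table named Myl7, Myl4, Nppa, Sln, Myh6, Ttn, Actc1, Tnnt2, Tnni3 and Ryr2, that is 10 genes of the 21930 listed. The genes were chosen by name, and all 10 had reads in every library and passed the filter on low counts. The mice fell into 3 groups of 3. The LPS plus RSBD group received lipopolysaccharide (LPS, a bacterial cell wall product that sets off inflammation) into the trachea at 2 mg/kg and then, from the next day, a daily gavage of Renshen Baidu Powder decoction (RSBD, a herbal formula). The LPS group received the same instillation and vehicle by gavage, and the control group saline in place of LPS. All were C57BL/6 mice of 6 to 8 weeks, labelled male and anaesthetised with tribromoethanol for the instillation, and lungs were taken on day 5. The dose of RSBD is not given in the labels.

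In the mouse, heart muscle does not end at the left atrium but runs as a sleeve along the pulmonary veins into the lung, so a lung sample normally holds some cardiomyocytes. These cells carry the contractile and calcium-handling genes that all heart muscle shares, with the light chains and hormones typical of atria, and they conduct the heartbeat into the vein wall. How much of the large veins, or of the atrium itself, is cut away with a lung varies between dissections, and in RNA of a whole organ fewer cells of a type and less RNA per cell cannot be told apart.

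Total counts per library over protein-coding genes were 26959662 to 36113905, the highest being that of LPS plus RSBD library 1. Reads of chromosome Y genes numbered 6 to 9 in the libraries labelled control and 7511 to 10918 in the other 6, although every mouse is labelled male. Treatment and this difference cannot be told apart in any comparison with control.

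Sequence before the transcription start is shown for Nppa, which parted furthest from the other atrial genes, and for Myl7 and Actc1, which hold the motif that is scarcest among promoters. The 250 bases before the start are given 5′ to 3′ on the gene's strand, from RefSeq's table for GRCm38.p6, which matched 9 of the 10 genes by symbol (Sln had no match). Nppa lies at chr4:148000472-148000721 on the plus strand, Myl7 at chr11:5898783-5899032 on the minus strand and Actc1 at chr2:114052876-114053125 on the minus strand. Capitals mark a CArG box (the site of serum response factor) and the MCAT motif CATTCC in Myl7, a CArG box in Actc1, and the motifs CAGCTG (an E-box) and TATAAA in Nppa.
Nppa: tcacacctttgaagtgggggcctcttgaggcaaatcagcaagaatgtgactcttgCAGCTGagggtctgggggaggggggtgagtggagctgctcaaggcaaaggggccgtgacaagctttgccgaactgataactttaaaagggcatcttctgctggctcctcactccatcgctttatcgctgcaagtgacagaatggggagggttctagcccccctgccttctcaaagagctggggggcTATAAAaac
Myl7: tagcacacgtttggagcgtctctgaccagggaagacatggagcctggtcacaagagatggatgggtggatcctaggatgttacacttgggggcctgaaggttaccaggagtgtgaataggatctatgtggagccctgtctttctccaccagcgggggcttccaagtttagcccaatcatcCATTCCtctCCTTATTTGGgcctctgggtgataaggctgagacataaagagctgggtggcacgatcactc
Actc1: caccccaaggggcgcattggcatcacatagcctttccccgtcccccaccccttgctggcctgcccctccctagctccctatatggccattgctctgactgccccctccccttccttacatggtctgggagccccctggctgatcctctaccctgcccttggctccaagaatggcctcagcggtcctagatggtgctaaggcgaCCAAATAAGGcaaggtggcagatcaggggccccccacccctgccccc
In Myl7 the CArG box stands 61 to 52 bases before the start and CATTCC 70 to 65 bases before it, with no overlap. The CArG box of Actc1 stands 47 to 38 bases before RefSeq's start, which lies inside the GENCODE gene model given below. In Nppa, CAGCTG stands 195 to 190 bases before the start and TATAAA 9 to 4 bases before it.

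Both strands of this window were searched in 32851 promoters of the table, of which 10 belong to these genes, Tnnt2 having an additional start. A CArG box stood in 2 of the 10, against 1.47% of all promoters, and CATTCC in 3 of the 10 (Myl7, Myh6 and Tnnt2), against 12.6%. A MEF2 site was present in Ttn alone of the 10, against 2.92% of all promoters. The letters AGATAA, known from sites of GATA factors, were present in Tnnt2 alone, against 9.99%. CAGCTG was found in 2 (Nppa and Tnnt2), against 13%, TATAAA in Nppa alone, against 12.4%, and CACTTGA, an NKX2-5 motif, in 0, against 2.68%. The matches describe letters in this window and are not shown binding sites.

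The amount of heart muscle RNA varied widely between mice of the same group. The summed level of the 10 genes was 779, 377 and 183 TPM (a level per transcript length and library size) in LPS plus RSBD libraries 1 to 3. It was 113, 204 and 164 TPM in LPS libraries 1 to 3, and 131, 290 and 540 TPM in control libraries 1 to 3. LPS plus RSBD library 1 and control library 3 held the most, and LPS library 1 the least. In CPM (counts scaled to library size, with TMM factors), LPS plus RSBD library 1 was the highest of all 9 libraries for 8 of the 10 genes and control library 3 for the other 2, Nppa and Sln. Control library 1 was the lowest control library for all 10 genes. The biological coefficient of variation ran from 0.322 for Ryr2 to 0.917 for Nppa, where the median of the 15636 genes tested was 0.145. Ryr2 stood at the 86.3 percentile of that measure and Nppa at the 99.5 percentile.

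Among the genes shared by all heart muscle, Myh6 encodes the alpha myosin heavy chain, the main motor of the adult mouse heart (ENSMUSG00000040752, chromosome 14, 54941921 to 54966927). Myh6 measured 219, 96.6 and 42.6 CPM in LPS plus RSBD libraries 1 to 3, 19.1, 26.6 and 14.5 CPM in LPS libraries and 18.2, 51.6 and 152 CPM in control libraries. Every LPS plus RSBD library lay above every LPS library, while control library 1 lay among the LPS values. Myh7, the neighbouring gene of the beta heavy chain with a very similar sequence, stayed between 12.2 and 20.6 CPM over all 9 libraries. Reads of the pair can be assigned to either.

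Ttn encodes titin, the giant spring of the sarcomere, which skeletal muscle also uses (ENSMUSG00000051747, chromosome 2, 76703980 to 76982547). Ttn measured 60.6, 31.3 and 21.3 CPM in LPS plus RSBD libraries, 12, 7.87 and 9.16 CPM in LPS libraries and 17.5, 30.4 and 57.8 CPM in control libraries. The LPS libraries lay below all 6 others. Tnnt2, cardiac troponin T, which fixes the troponin complex to tropomyosin (ENSMUSG00000026414, chromosome 1, 135836354 to 135852260), measured 99.3, 50 and 28.2 CPM in LPS plus RSBD, 11.9, 24.8 and 18.6 CPM in LPS and 18.9, 38.2 and 94.7 CPM in control libraries. LPS plus RSBD library 1 and control library 3 were close to each other at the top, and control library 1 overlapped the LPS range.

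Tnni3, cardiac troponin I, the inhibitory subunit that is a target of adrenergic signalling (ENSMUSG00000035458, chromosome 7, 4518305 to 4524229), measured 35.9, 16.5 and 13.8 CPM in LPS plus RSBD, 7.84, 11.8 and 8.1 CPM in LPS and 8.34, 15.4 and 20.6 CPM in control libraries. Ryr2, the channel that releases calcium from the sarcoplasmic reticulum (ENSMUSG00000021313, chromosome 13, 11553102 to 12106945), measured 41.1, 19.2 and 21.1 CPM in LPS plus RSBD, 14.3, 12.3 and 12.6 CPM in LPS and 12.7, 21.4 and 35.3 CPM in control libraries. For both, the LPS plus RSBD libraries lay wholly above the LPS libraries and overlapped the control libraries. Actc1, cardiac actin, the thin filament itself (ENSMUSG00000068614, chromosome 2, 114047282 to 114053548), measured 110, 80.7 and 30.3 CPM in LPS plus RSBD, 26.4, 38.5 and 51.7 CPM in LPS and 36.8, 57.6 and 44.5 CPM in control libraries. Its groups overlapped in all comparisons, and control library 3, at the top of the controls for the other 9 genes, was not so for Actc1.

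Among the atrial-type genes, Myl7 encodes the regulatory light chain of atrial myosin (ENSMUSG00000020469, chromosome 11, 5896637 to 5898782). Myl7 measured 52.6, 21.9 and 7.85 CPM in LPS plus RSBD libraries, 4.61, 14.2 and 11.4 CPM in LPS libraries and 3.13, 10.6 and 17.2 CPM in control libraries. Myl4, the essential light chain of atria (ENSMUSG00000061086, chromosome 11, 104550663 to 104595753), measured 61.7, 29.2 and 12.5 CPM in LPS plus RSBD, 6.95, 22.2 and 12.5 CPM in LPS and 7.57, 14.1 and 26.3 CPM in control libraries. Both light chains overlapped between all groups, and LPS library 1 was the lowest LPS library for both.

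Nppa encodes the precursor of atrial natriuretic peptide, the hormone that atrial muscle releases on stretch (ENSMUSG00000041616, chromosome 4, 148000722 to 148002079). Nppa had 465, 75 and 23 counts in LPS plus RSBD libraries, 6, 27 and 17 counts in LPS libraries and 39, 149 and 895 counts in control libraries. These were 12.7, 2.42 and 0.836 CPM in LPS plus RSBD, 0.223, 0.882 and 0.618 CPM in LPS and 1.37, 4.74 and 31.8 CPM in control libraries. The LPS libraries lay below all control libraries, and the span over all 9 libraries was 143-fold, against 3.35-fold for Ryr2. Sln encodes sarcolipin, a small membrane protein that inhibits the calcium pump of the reticulum in atrial and skeletal muscle (ENSMUSG00000042045, chromosome 9, 53850164 to 53854560). Sln measured 21.7, 8.62 and 7.96 CPM in LPS plus RSBD, 1.37, 7.71 and 4.14 CPM in LPS and 4.61, 12.9 and 22.7 CPM in control libraries. Its LPS plus RSBD libraries all exceeded the LPS libraries, the nearest values being 7.96 and 7.71 CPM.

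**Figure D1:**
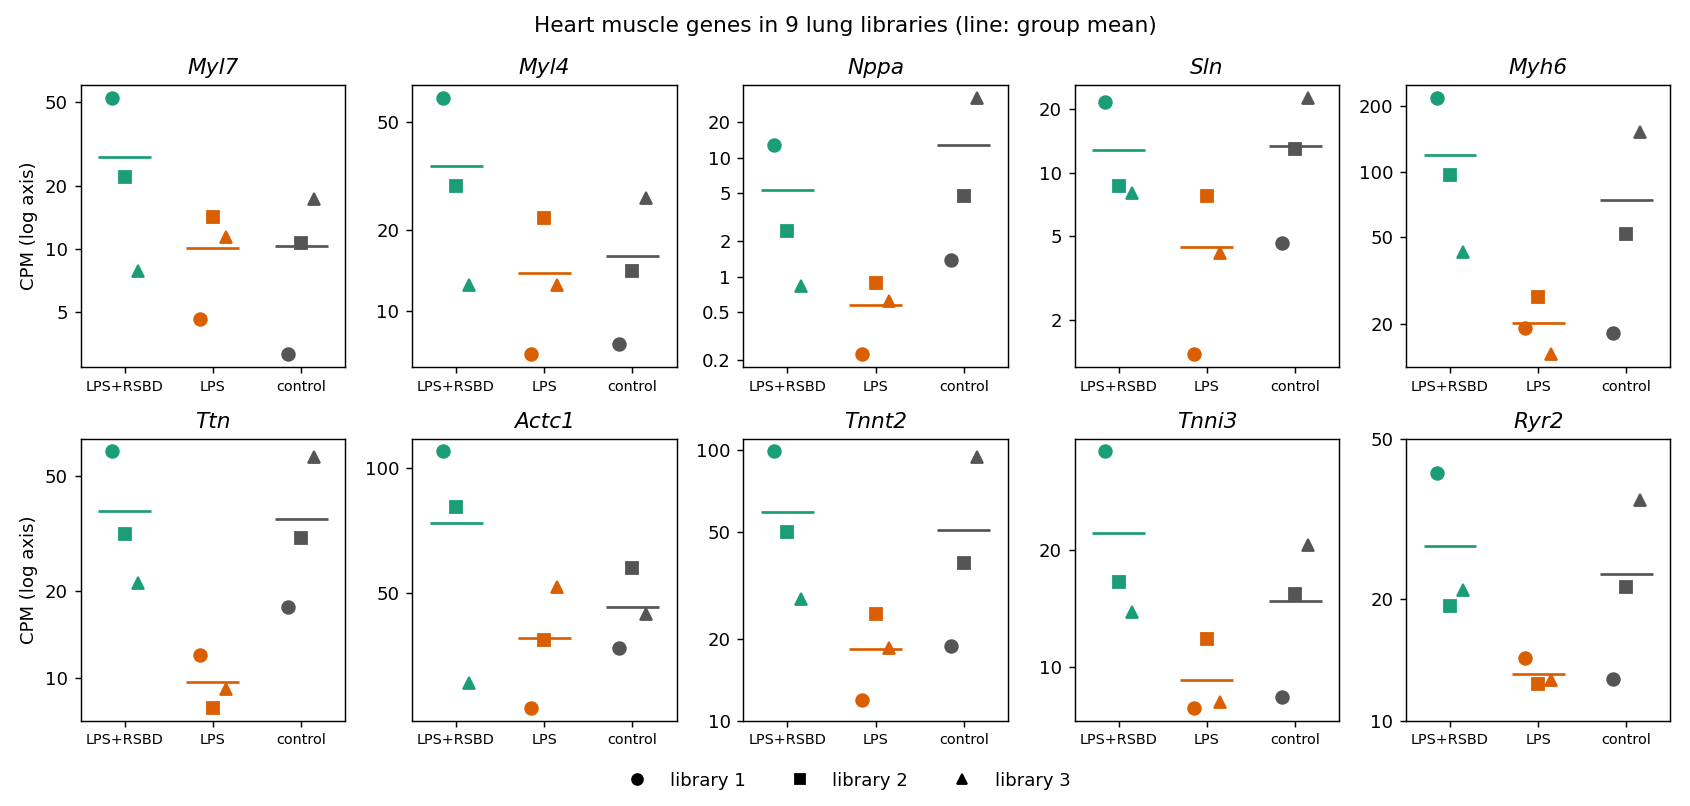
CPM of each cardiac muscle gene (log axis, a separate scale per gene) in LPS plus RSBD, LPS and control lungs, 3 libraries a group, with a line at the group mean and a marker shape per library number. LPS plus RSBD library 1 is the highest of all 9 for 8 genes, and in Ttn and Nppa the LPS libraries lie below all control libraries.

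Several of these gene models overlap others in GENCODE M21, where all 10 have the coordinates given here (GRCm38). The antisense gene Gm13054 overlaps 989 bases of Nppa, Gm13938 runs antisense through 63933 bases of Ttn, and Dnaaf3 shares 1297 bases with Tnni3 on the same strand. On the opposite strand, A530058N18Rik covers 6267 bases of Actc1, its whole gene model, and Gm22000 overlaps 7740 bases of Myl4. Libraries were strand-specific, and no source used here says whether the counting used strand.

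Against control lungs, LPS lungs held less Ttn, and no other of the 10 genes passed the test. Ttn averaged 9.68 ± 2.11 CPM in LPS and 35.3 ± 20.6 CPM in control libraries (SD, n = 3 each), a log2 fold change of -1.87 ± 0.48 (edgeR quasi-likelihood test, adjusted p = 0.0324). Over all genes tested 8.63% were called lower and 8.79% higher, so 1 of 10 lower and 0 of 10 higher are near the background. Nppa averaged 0.574 ± 0.332 CPM in LPS and 12.7 ± 16.7 CPM in control libraries, a log2 difference of -4.43 ± 1.37 that missed the threshold (edgeR adjusted p = 0.0545), with 0.00537 to 0.226 over its alternatives (called by DESeq2 and without control library 1). All 10 estimates were negative, from -4.43 for Nppa to -0.03 for Myl7, with a median of -1.14 where the median of all genes tested was -0.01. In 2 of the 10, Ttn and Nppa, the LPS libraries lay wholly below the control libraries, against 19.5% of all genes tested. The median was -0.51 without control library 3. Ttn lost its call without control library 2 or 3, any LPS library or LPS plus RSBD library 2 (edgeR adjusted p = 0.0627 to 0.12). Its call was also lost with no filter on low counts (edgeR adjusted p = 0.0643) and with a replicate block (0.0779).

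Myh6 averaged 20.1 ± 6.1 CPM in LPS and 73.9 ± 69.6 CPM in control libraries, a difference of -1.88 ± 0.77 on the log2 scale (edgeR adjusted p = 0.117). Tnnt2 differed by -1.46 ± 0.61 (edgeR adjusted p = 0.127), Sln by -1.60 ± 0.71 (0.144) and Ryr2 by -0.82 ± 0.38 (0.159). Actc1 and the 2 atrial light chains were closest to 0, Actc1 with -0.25 ± 0.42, Myl4 with -0.20 ± 0.64 and Myl7 with -0.03 ± 0.74. The SE of these genes was large beside the median SE of 0.15 over all genes tested.

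Set against LPS lungs, LPS plus RSBD lungs had higher means of all 10 genes, and 0 of the 10 passed the test. Over the whole table edgeR called 0 genes (0% of those tested), with 1473 at an unadjusted p under 0.05, while DESeq2 called 153 genes and none of these 10. Of the 10 genes, 6 had an unadjusted p under 0.05. The smallest was that of Ttn, which averaged 37.7 ± 20.4 CPM in LPS plus RSBD and 9.68 ± 2.11 CPM in LPS libraries, a log2 difference of 1.97 ± 0.48 (edgeR adjusted p = 0.363). Myh6 averaged 120 ± 90.6 CPM in LPS plus RSBD and 20.1 ± 6.1 CPM in LPS libraries, a difference of 2.57 ± 0.78 (edgeR adjusted p = 0.408). Nppa differed by 3.20 ± 1.34 (edgeR adjusted p = 0.513) and Actc1, with the smallest difference, by 0.93 ± 0.42 (0.535).

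The LPS plus RSBD libraries lay wholly above the LPS libraries in 6 of the 10 genes (Sln, Myh6, Ttn, Tnnt2, Tnni3 and Ryr2), against 7.18% of all genes tested, and wholly below them in 0 of the 10, against 5.46%. Of the 6 shared genes 5 were among them, and of the 4 atrial-type genes 1. These genes vary together from mouse to mouse, so the 6 are not independent. The median difference was 1.49 over the 10 genes, where that of all genes tested was 0.01, and it was 0.81 without LPS plus RSBD library 1. The LPS libraries enter this comparison and the previous one, so that a low LPS group moves both.

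In LPS plus RSBD lungs against control lungs, 0 of the 10 genes passed the test, where edgeR called 3.7% of all genes tested (1.89% higher and 1.8% lower). DESeq2 called none of the 10 either. An unadjusted edgeR p under 0.05 was found for 0 of the 10, against 3555 of all 15636 genes tested. No gene of the 10 separated the groups, against 15.4% of all genes tested that were wholly higher and 15% that were wholly lower. Myl7 averaged 27.5 ± 22.9 CPM in LPS plus RSBD and 10.3 ± 7.05 CPM in control libraries, the largest positive estimate (1.41 ± 0.74, edgeR adjusted p = 0.294). Nppa averaged 5.34 ± 6.47 CPM in LPS plus RSBD and 12.7 ± 16.7 CPM in control libraries, the largest negative one (-1.23 ± 1.13, edgeR adjusted p = 0.557). Ttn, called in LPS lungs, averaged 37.7 ± 20.4 CPM in LPS plus RSBD and 35.3 ± 20.6 CPM in control libraries (0.10 ± 0.46). The median of the 10 estimates was 0.41, and it was -0.14 without LPS plus RSBD library 1 and 0.85 without control library 3.

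**Figure D2:**
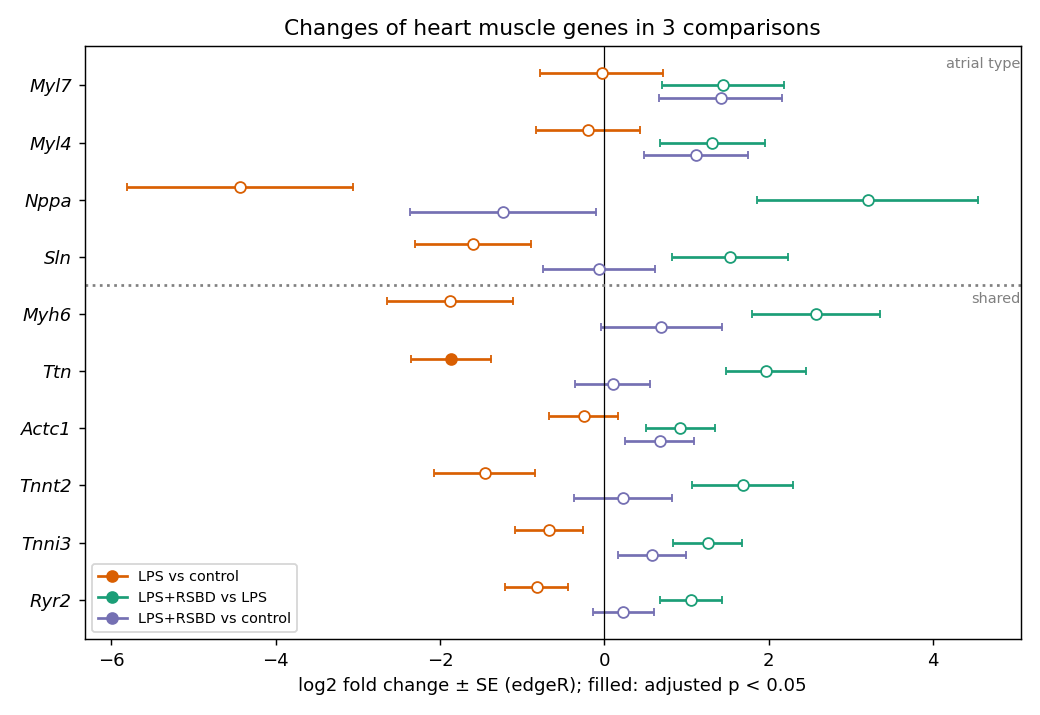
Log2 fold change with its SE from edgeR for each cardiac muscle gene (rows, atrial-type genes above the dotted line) in 3 comparisons (colours), 3 libraries a group, with filled points at an adjusted p under 0.05. The single filled point is Ttn in LPS against control, and all LPS plus RSBD against LPS estimates lie right of 0.

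Whether atrial-type genes moved apart from genes of all heart muscle was asked within each library. The mean log2 CPM of the 4 atrial-type genes minus that of the 6 shared genes, each gene centred over the 9 libraries, was 0.52, -0.03 and -0.41 in LPS plus RSBD libraries 1 to 3, -1.04, 0.51 and 0.08 in LPS libraries and -0.40, 0.13 and 0.65 in control libraries. The groups overlapped fully, and no common shift of the atrial-type genes was seen.

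Set against the mean of the 6 shared genes, Myl4 stood at -0.33, -0.44 and -0.98 (log2) in LPS plus RSBD libraries, at -1.02, 0.34 and -0.29 in LPS libraries and at -1.16, -1.19 and -1.06 in control libraries. Each of the 6 LPS-treated libraries thus held more Myl4 per shared heart muscle RNA than each control library, by a mean of 0.81 in LPS against control and of 0.55 in LPS plus RSBD against control. Nppa ran the other way, at -2.60, -4.00 and -4.78 in LPS plus RSBD, -5.62, -4.21 and -4.49 in LPS and -3.56, -2.75 and -0.78 in control libraries. Its LPS libraries lay below all control libraries, with a mean difference of -2.41. In exact 2-sided permutation tests of these values for LPS against control, Myl4 and Nppa each gave p = 0.1, the smallest that 3 against 3 allow, Myl7 p = 0.2 and Sln p = 0.6. Over the 12 tests of this kind no adjusted p (Benjamini-Hochberg) was below 0.4, and a p of this size cannot pass the threshold.

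**Figure D3:**
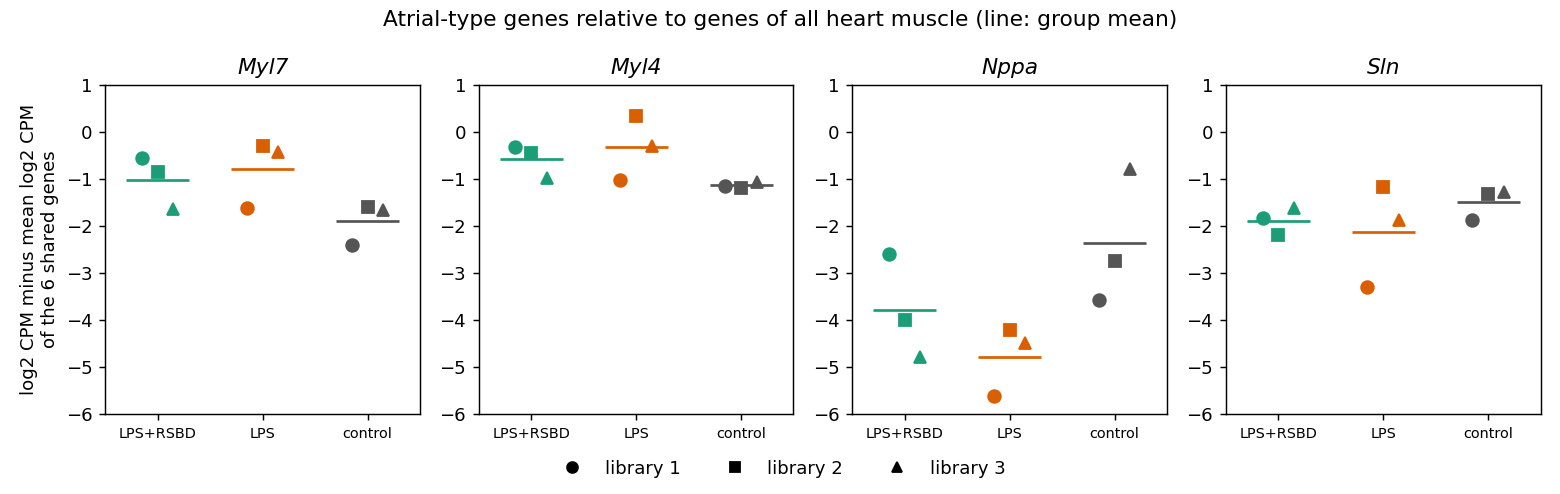
Log2 CPM of each atrial-type gene minus the mean log2 CPM of the 6 shared heart muscle genes in the same library, for LPS plus RSBD, LPS and control lungs, 3 libraries a group with a line at the mean. Myl4 is lowest in the control libraries, while Nppa lies lower in every LPS library than in any control library.

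Ratios of TPM describe the same libraries and genes without scaling between libraries, and they are no separate evidence. Nppa per Myl7 was 0.165, 0.0748 and 0.0718 in LPS plus RSBD libraries, 0.03, 0.0422 and 0.0367 in LPS libraries and 0.301, 0.304 and 1.26 in control libraries, with no overlap between any pair of groups. Sln per Myl7 was 0.185, 0.176 and 0.454 in LPS plus RSBD, 0.133, 0.243 and 0.161 in LPS and 0.66, 0.541 and 0.591 in control libraries, so that control libraries were above all others. Myl7 per Tnnt2 was 0.882, 0.759 and 0.468 in LPS plus RSBD, 0.7, 0.939 and 1.14 in LPS and 0.304, 0.465 and 0.305 in control libraries. These ratios were chosen after their values were seen. All 45 ratios between 2 of the 10 genes were also formed, from estimated counts and not from TPM, and a pair can differ between these units. Of the 45 count ratios, 18 did not overlap between LPS and control libraries, which is 40%. The same held for 37.3% of all 123127278 pairs among 15693 genes with at least 10 counts in 3 libraries. The corresponding numbers were 9 of 45 for LPS plus RSBD against LPS (20%, against 13.5% of all pairs) and 8 of 45 for LPS plus RSBD against control (17.8%, against 27.9%). The share in LPS against control is near that of all pairs.

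Per length, the thin filament and the light chains made up most of the RNA. In LPS plus RSBD libraries the order of mean TPM was Tnnt2 (102 ± 66.1), Actc1 (86.1 ± 48.1), Myl7 (80.2 ± 67.9), Myl4 (64.6 ± 49.2), Tnni3 (46.8 ± 24.6), Myh6 (34.3 ± 26.7), Sln (16.7 ± 10.4), Nppa (10.7 ± 13), Ryr2 (3.42 ± 1.78) and Ttn (0.699 ± 0.394; SD, n = 3). In LPS libraries Actc1 led with 44.2 ± 11 TPM and Nppa, at 1.07 ± 0.605 TPM, stood below Ryr2 at 1.64 ± 0.376 TPM. In control libraries Tnnt2 led with 93.1 ± 75.6 TPM and Nppa held rank 6 with 27 ± 35.7 TPM. The mean ± SD of neighbours overlapped except for Ryr2 and Ttn in LPS plus RSBD, Tnni3 and Myh6 as well as Nppa and Ttn in LPS, and Sln and Ryr2 as well as Ryr2 and Ttn in control libraries.

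Atrial light chains were present in every library. Of the 4 genes on the ventricular list, Myl2 and Irx4 were at or near 0 and Myh7 was present in every library. Myl3 ran from 0 counts in control libraries 1 and 2 to 82 counts in LPS plus RSBD library 1. Myl2, the ventricular regulatory light chain, had 4, 0 and 6 counts in LPS plus RSBD libraries, 13, 8 and 5 in LPS libraries and 3, 0 and 3 in control libraries, at most 1.05 TPM, where Myl7 had 9.21 TPM or more in every library. Irx4, a ventricular transcription factor, had 0 counts in all 9 libraries. Myl3, the essential light chain of ventricle and slow skeletal muscle, had 82, 41 and 6 counts in LPS plus RSBD libraries, 13, 51 and 13 in LPS libraries and 0, 0 and 17 in control libraries, and it was not called in any comparison. Myh7, which the ventricle shares with slow skeletal muscle, measured 3.96 to 6.81 TPM over the 9 libraries and was not called either. Mybphl, a myosin-binding protein enriched in atria, measured 9.05, 4.45 and 1.24 CPM in LPS plus RSBD, 0.52, 2.35 and 1.85 CPM in LPS and 0.915, 1.72 and 4.38 CPM in control libraries. Bmp10, a growth factor of the atria, had 0 counts in every library and Nppb at most 3. Pulmonary vein muscle and fragments of atrium cannot be told apart by these genes.

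Other genes of heart muscle were mostly lower in LPS lungs in estimate, and few passed the test. Of 62 further heart genes in 6 lists (sarcomere, calcium handling, atrial and vein, ventricular, energy and transcription), 55 were tested. In LPS against control 4 were lower and 0 higher, with a median of -0.67, and the 4 were Myom1, Myom2, Atp2a2 and Tbx20. With 8.63% of all genes tested called lower, 4 of 55 is not above the background. Myom2, a protein of the sarcomere's M band, averaged 2.14 ± 0.857 CPM in LPS and 14.5 ± 15 CPM in control libraries (-2.75 ± 0.82, edgeR adjusted p = 0.0489). Myom1, of the same band, was lower by a log2 fold change of -0.67 ± 0.20 (0.0475). Atp2a2, the SERCA2 calcium pump that many cell types use, averaged 241 ± 2.26 CPM in LPS and 408 ± 102 CPM in control libraries (-0.76 ± 0.19, edgeR adjusted p = 0.0286). Tbx20, a transcription factor of cardiac muscle, averaged 0.456 ± 0.0594 CPM in LPS and 2.78 ± 1.98 CPM in control libraries (-2.60 ± 0.78, edgeR adjusted p = 0.0476).

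Of the same 55 genes, 0 were called in LPS plus RSBD against LPS, where 47 estimates were positive with a median of 1.23 and 23 had an unadjusted edgeR p under 0.05. Of all 15636 genes tested, 8200 estimates were positive with a median of 0.011, and 1473 had an unadjusted edgeR p under 0.05. Many of the heart genes vary together from mouse to mouse, so these counts are not of independent genes. In LPS plus RSBD against control 0 were called, with a median of 0.30. By list, the 18 sarcomere and Z disc genes had a median of -0.98 in LPS against control with 2 lower, the 11 calcium-handling genes -0.69 with 1 lower, and the 9 tested genes of transcription and conduction -0.62 with 1 lower. The 5 tested genes of the atrial and vein list had a median of -0.56 and the 2 tested ventricular genes of 0.87, with 0 called in either. The 10 energy and oxygen genes, among them the myoglobin gene Mb and the creatine kinases Ckm and Ckmt2, had a median of 0.20 with 0 called. In LPS plus RSBD against LPS these medians were 1.51 for the sarcomere list, 0.57 for calcium handling, 0.31 for transcription and conduction, 0.30 for energy and oxygen, 1.64 for the atrial and vein list and 0.26 for the ventricular list.

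Across the 9 libraries the 10 genes varied together. Over their 45 pairs Pearson's r of log2 CPM ran from 0.56, for Actc1 with Ryr2, to 0.97, for Myl7 with Myl4, with a median of 0.84, and with group means removed the median was 0.87. These are descriptions over the 9 libraries, and whether differing heart muscle content underlies them was not tested. Among 14385 other genes averaging 1 CPM or more, the 12 most like the mean profile of the 10 genes were Hrc, Pln, Actn2, Myoz2, Ldb3, Csrp3, Srl, Smoc1, Kcnmb1, Eef1a2, Tnnc1 and Trdn, with r of 0.984 to 0.954, where the median gene had -0.002. Of these, 9 were on the heart lists: calcium handling (Hrc, Pln, Srl and Trdn) and sarcomere (Actn2, Myoz2, Ldb3, Csrp3 and Tnnc1). Pln, phospholamban, the main inhibitor of SERCA2 in heart, measured 30.9, 11.6 and 6.87 CPM in LPS plus RSBD, 3.75, 5.62 and 3.42 CPM in LPS and 3.31, 8.06 and 16.5 CPM in control libraries. The other 3 were Smoc1, a matricellular protein gene, Kcnmb1, a potassium channel subunit of smooth muscle, and Eef1a2, the elongation factor form of muscle and neurons. Gja5 (r = -0.178), Slc8a1 (-0.372) and Camk2d (-0.524), which other lung cells also use, did not follow.

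Genes of other tissues that come away with a lung were read beside these. Skeletal muscle was scarce: of 20 genes 9 passed the filter, Acta1 had at most 9 counts and Myh4 at most 6 in any library. The summed skeletal level was 13.2 to 22.1 TPM in LPS plus RSBD, 13.3 to 16.2 TPM in LPS and 10.8 to 19 TPM in control libraries, with 0 called in any comparison. LPS plus RSBD library 1 had the highest skeletal level of the 9 libraries (22.1 TPM), as it had of heart muscle RNA. The adipocyte list summed to 160 to 229 TPM in LPS plus RSBD, 147 to 191 TPM in LPS and 169 to 257 TPM in control libraries. Its score was highest in LPS plus RSBD library 1 (0.91), the library with the most heart muscle RNA. There the fat hormone gene Adipoq measured 5.98 CPM, against 1.16 and 1.02 CPM in LPS plus RSBD libraries 2 and 3 and 0.363 to 2.29 CPM in the other 6. In CPM, Plin1, Cidec, Retn and Cfd were likewise highest in LPS plus RSBD library 1. Fabp4, Plin4, Cidea and Pnpla2 were highest in control library 3, as was the summed level of the list (257 TPM). Lipe was lowest in LPS plus RSBD library 1 (69.6 CPM). Of the 10 adipocyte genes tested 2 were lower in LPS than in control libraries, against 8.63% of all genes tested, the lipid droplet genes Cidea (-1.38, edgeR adjusted p = 0.0373) and Plin4 (-0.97, 0.0265). Ucp1, the brown fat uncoupling protein, had at most 4 counts.

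Smooth muscle genes summed to 223 to 495 TPM in LPS plus RSBD, 263 to 391 TPM in LPS and 310 to 427 TPM in control libraries. Of the 10, Myocd, a coactivator of smooth and cardiac muscle genes, averaged 2.28 ± 0.458 CPM in LPS and 4.39 ± 0.322 CPM in control libraries (-0.95 ± 0.29, edgeR adjusted p = 0.0474). Mesothelial genes summed to 163 to 225 TPM in LPS plus RSBD, 174 to 225 TPM in LPS and 232 to 315 TPM in control libraries, with Msln lower in LPS than in control among 9 tested. The mesothelial score was 1.14, -1.61 and -1.66 in LPS libraries 1 to 3. It was 0.929, 0.773 and 0.936 in control libraries and -0.315, -0.339 and 0.153 in LPS plus RSBD libraries. The score was thus high both in LPS library 1, with the least heart muscle RNA, and in control library 3, with the most among controls. The thymus list summed to 42.3 to 79.9 TPM in LPS plus RSBD, 50.3 to 65.2 TPM in LPS and 40.1 to 46.4 TPM in control libraries. Its genes Rag1, Rag2, Ptcra, Foxn1 and Psmb11 had at most 4 counts in any library, and Dntt at most 19. The sum thus came mostly from Cd8b1, Themis, Cd1d1 and Ccl25, and thymus tissue is not shown by it. Cd1d1 was higher in LPS than in control. Genes of vein and endocardial endothelium had 0 called of 8. These are single calls per list, where 8.63% of all genes tested were called lower and 8.79% higher in LPS against control. The part of these tissues, and of the dissection, in the cardiac differences was not tested.

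**Figure D4:**
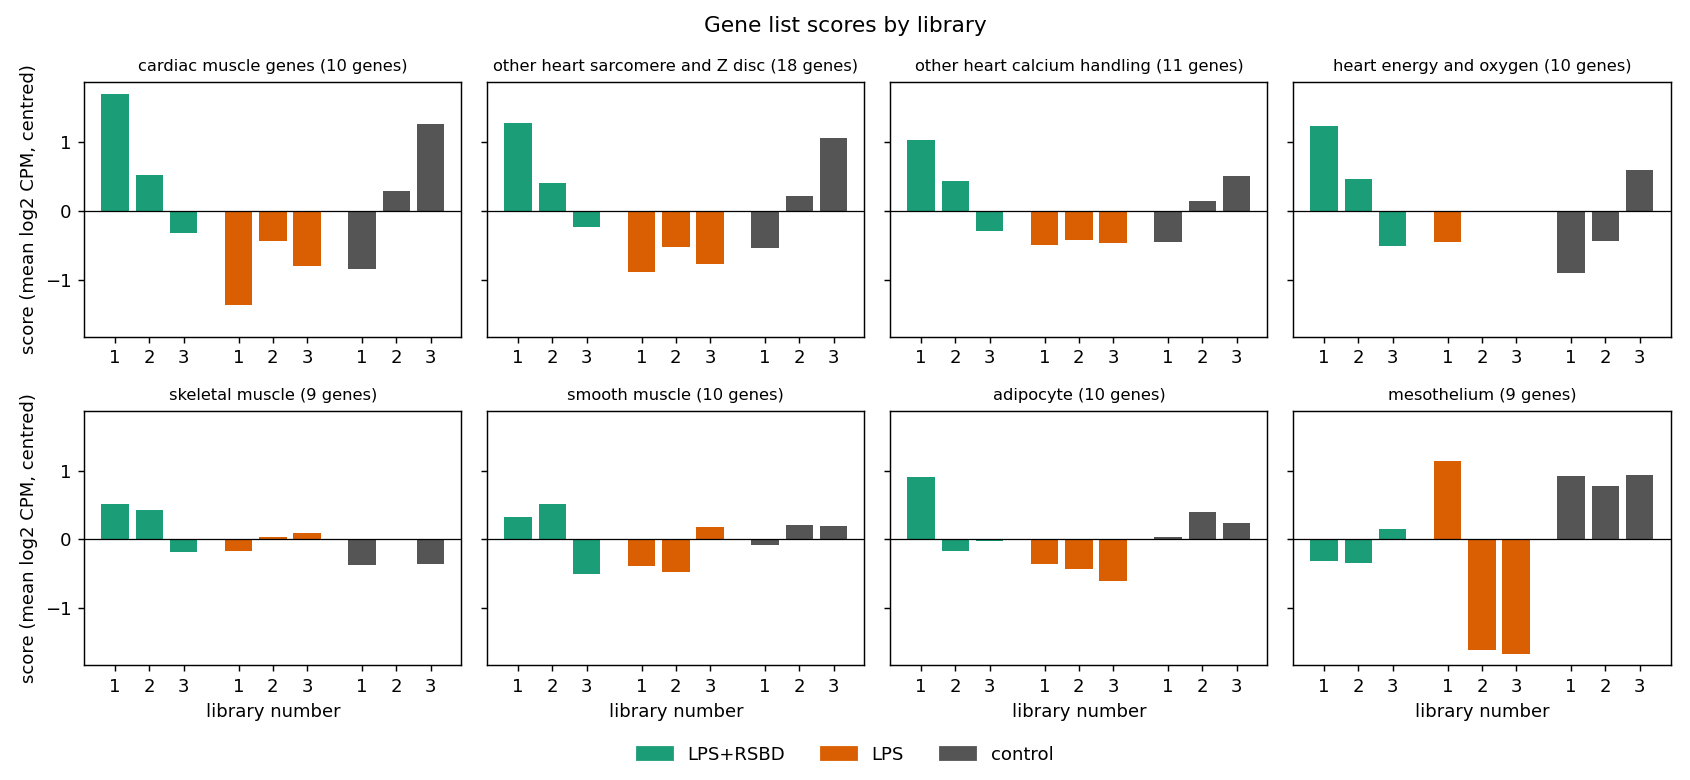
Scores of 8 gene lists in the 9 libraries (mean log2 CPM of the genes tested, centred over libraries, higher meaning more RNA), with LPS plus RSBD bars left, LPS bars in the middle and control bars right. LPS plus RSBD library 1 has the highest bar for the cardiac muscle genes (1.70), the 3 other heart lists plotted, the skeletal muscle list and the adipocyte list. Control library 3 follows for the cardiac muscle genes (1.26).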

How the data were processed

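Lung RNA of 9 mice was analysed in 3 groups of 3 (strand-specific libraries, 150-base paired reads). The submitters' processing notes name HISAT2 2.2.1 and StringTie 2.2.0, besides fastp 0.23.2 and DESeq2 1.38.3, without their roles, and the build GRCm38 (mm10). The authors deposited an estimated count per gene, a whole number in every cell and not normalized, as the file's values show. The authors' TPM values, from a separate deposited table, served for levels between genes and for alternatives. Which program counted, and with which annotation, is not given in the sources used here. Columns named RS were taken as the RSBD libraries of the same number. Values of 2 outnumber values of 1 (2989 against 1349).

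With edgeR 4.0.16 (R 4.3.3), filterByExpr at a minimum count of 10 and a minimum total of 15 left 15636 genes. TMM scaling and robust quasi-likelihood F tests (2-sided) used all 9 libraries in a single fit, and p-values were adjusted across the whole table by Benjamini-Hochberg, with 0.05 as threshold. Log2 CPM used a prior count of 2. The procedure was tested on simulated data. Alternatives used DESeq2 1.42.0, limma 3.58.1 on log2(TPM + 1) and log2(TPM + 0.1) for genes at 1 TPM in 3 libraries, other scaling, no filter, a replicate block and each library left out. The labels name no batch. The design text calls the replicates biological, and any pair of libraries differed in at least 17016 genes.

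The 10 genes and all lists were chosen with earlier results of these data known. All 10 are named in every comparison or by library. Other genes are named where a heart gene was called, as up to 4 called genes of each other list, as the 12 with the highest Pearson's r to the mean profile, and as defining markers. Mybphl, Myl3, Irx4, Bmp10, Nppb, Adipoq, Gja5, Slc8a1, Camk2d and Myh7 were named, and the promoters shown chosen, after their values were seen. The same holds for Plin1, Cidec, Retn, Cfd, Fabp4, Pnpla2 and Lipe of the adipocyte list. It also holds for Rag1, Rag2, Ptcra, Foxn1, Psmb11, Dntt, Cd8b1, Themis and Ccl25 of the thymus list.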

Additional observations from a re-analysis of the deposited data

How the results depend on the processing

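Of the 10 genes, the number called in LPS against control was 1, and it was 2 with DESeq2, 0 with no filter on low counts, 0 with limma on either TPM scale (where Ttn did not reach the filter), 0 with the replicate block (Ttn at an edgeR adjusted p of 0.0779) and 0 to 2 when 1 library was left out. It was 1 with DESeq2's size factors in edgeR, with library totals and with only the groups compared. For LPS plus RSBD against LPS and against control it was 0 in edgeR and under every alternative run, the replicate block included. Same-numbered libraries shared only a number: their deviations correlated at -0.215 to 0.122, and 1 of 9 libraries correlated best with its own number. Over all genes, LPS plus RSBD against control gave 578 calls with edgeR, 1699 with DESeq2, 308 and 307 with limma, 240 with the replicate block and 94 to 961 when 1 library was left out. LPS against control gave 2723 calls with edgeR and 786 to 2870 when 1 library was left out.

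In LPS against control, Myl7 reversed to 0.022 and 0.034 with limma on log2(TPM + 1) and log2(TPM + 0.1). Over left-out libraries it ran from -0.463 to 0.548, and Myl4 from -0.713 to 0.359. In LPS plus RSBD against control, Sln was 0.19 with the replicate block and -0.692 to 0.549 over left-out libraries. There Nppa ran from -2.944 to 0.807, Myh6 from -0.085 to 1.775, Ttn from -0.419 to 0.656, Tnnt2 from -0.37 to 1.052 and Ryr2 from -0.197 to 0.672, the lowest without LPS plus RSBD library 1 and the highest without control library 3. The atrial-type minus shared difference, -0.28 in LPS against control, ran from -0.61 to 0.164. The causes were not tested. The spread between 3 mice a group was wide beside these differences.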
